A study of Mus musculus with 12 samples.

Results

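MC38-idAdpgkG cells treated with doxycycline and dTAG-13 together were compared with control cells that had neither compound, over all genes. The comparison used 6 of the 12 libraries of the series, the 3 with both compounds and the 3 controls, and 12910 of the 27179 gene identifiers in the count table, those with enough reads to test. MC38 is a colon carcinoma line from a C57BL/6 mouse, and the derivative used here was stably transfected with a mutated Adpgk joined to turboGFP, made so that its expression could be induced and its protein degraded. Every group, the controls included, was kept in mouse interferon-gamma at 20 ng/mL, so no group shows these cells without the cytokine. Control cells had the cytokine alone for 51 h. Cells with both compounds had it together with 1 µg/mL doxycycline for 51 h, and 1 µM dTAG-13 was added after 48 h for the last 3 h. Groups with doxycycline alone for 51 h and with dTAG-13 alone for the last 3 h are shown beside them, and all 3 comparisons use the same control libraries. Per the labels, each group is a single biological sample of a single engineered line, measured as technical triplicates. The errors and p-values below therefore describe the spread between 3 libraries of 1 sample, not between cultures.

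In such a line, doxycycline switches on the transgene, and dTAG-13 is a heterobifunctional molecule that binds a mutant FKBP tag on a protein with one end and the ubiquitin ligase subunit cereblon with the other, which leads to ubiquitination and degradation of the tagged protein. It acts on protein, not on the transgene's RNA. Interferon-gamma signals through its receptor and the kinases Jak1 and Jak2 to transcription through GAS sites, and induces Irf1, guanylate-binding proteins, chemokines and the antigen-presentation machinery. Type I interferons act through a complex that includes Stat2 and Irf9 and binds the interferon-stimulated response element (ISRE) of antiviral genes, and many genes answer both kinds of interferon. The endpoint with both compounds is thus a state after long exposure to doxycycline and the transgene, and a short exposure to the degrader.

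The 12 libraries held 22165538 to 32809573 counted reads, the lowest total being that of replicate 1 with both compounds, and 15373 to 15970 genes with at least 1 read. Among the 6 libraries compared, 81.8% of the variance lay on the first principal axis, which separated the groups, and 5.4% on the second. No pair of replicates was identical within sampling noise. With both compounds, the chi-square per gene was 2.755 between replicates 1 and 2, and 8.459 and 8.817 between each of these and replicate 3. Between controls it was 2.467 to 4.685. The median absolute log2 ratios of the pairs with both compounds were 0.064 to 0.077. Replicate 3 with both compounds thus stood apart from its group over many genes. Among them, 2 short structural RNAs, Rmrp and Rn7sk, are given with and without it below with the values of the other groups. Of 10 epithelial markers, none had enough reads to test, their summed level was at most 0.712 CPM (counts per 1e6 reads of TMM-scaled library size) in any library, and Epcam, Cdx2 and Muc2 had no reads, although the labels name the tissue as colon. Of 7 mesenchymal markers, 6 were tested, and their summed level, mostly Vim and Fn1, was 2460 to 2530 CPM in the controls and 1690 to 1730 CPM with both compounds, while S100a4 and Pdgfrb were called higher, by 0.83 and 0.52 on the log2 scale. T cell and B cell markers summed to at most 0.138 CPM, endothelial markers to at most 4.15 CPM, and the 5 myeloid markers to 0.869 to 1.13 CPM in the controls and 1.72 to 1.96 CPM with both compounds. Nearly all of the last sum was Cd68, the only 1 of the 5 tested, and Ptprc, Adgre1, Csf1r and Itgam had at most 3 reads in any library. The part of these markers in the results was not tested. In bulk RNA, fewer cells with a transcript and less of it per cell cannot be told apart.

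With both compounds, 8557 of 12910 genes (66.3%) differed from control at an adjusted p under 0.05 in edgeR's quasi-likelihood test, the threshold for every call below. Of all tested genes, 32.5% (4197) were called higher and 33.8% (4360) lower. Counts of list members below are to be read against these shares. Most changes were small, with a median absolute log2 fold change of 0.352 among called genes. Changes of at least 2-fold were 296 higher (2.29% of tested genes) and 53 lower (0.411%). The genes at least 2-fold higher included 167 protein-coding genes, 35 long non-coding RNAs, 33 small nucleolar RNAs and 40 with no type listed. Of the 53 at least 2-fold lower, 49 were protein-coding. The shares of these types over all tested genes were not counted, so no excess of a type is read from these numbers. Against the same controls, doxycycline alone gave 14.8% of genes higher and 18.7% lower, and dTAG-13 alone gave 30.0% higher and 32.1% lower. The interaction asks whether the log2 change with both compounds differs from the sum of the 2 single changes, and it was called for 22.9% of genes.

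Transcript length moved with the fold change. The reference gave a length for 11745 of the tested genes (91.0%), taken as that of the longest annotated transcript of each gene. The transcript in use in these cells may be shorter. Across these genes Spearman's rho between length and log2 fold change was -0.457, a description over genes that share the same libraries. In the shortest eighth of genes (median length 1153 bases) the median log2 fold change was 0.30, and 61.7% of genes were called higher and 4.9% lower. In the longest eighth (median length 7820 bases) the median was -0.34, and 9.74% were called higher and 68.6% lower. The same medians were 0.21 and -0.28 for dTAG-13 alone, and -0.04 and 0.03 for doxycycline alone. A fit with offsets for transcript length and GC content, given below as the length-corrected value, left 6977 of 11745 genes called, 2911 higher and 4066 lower, with 180 at 2-fold or more. Length and GC content were fitted together, so a shift under this fit is not credited to length alone. Whether long transcripts were less abundant in the cells or less often recovered in these libraries cannot be told apart here, so length-corrected counts or medians are given for the groups below.

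**Figure D1:**
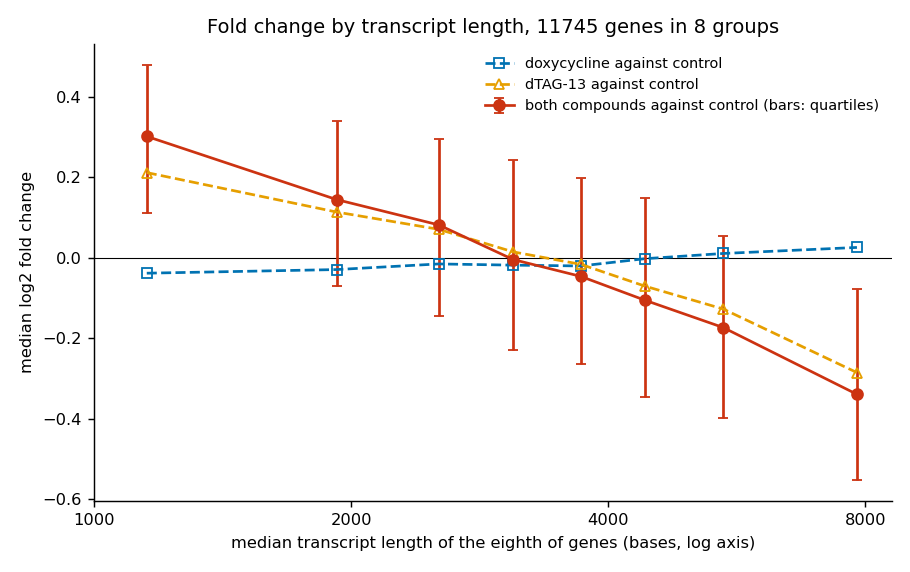
The 11745 genes with a known transcript length fall into 8 groups by length; the x axis is the median length of each group (bases, log axis), the y axis the median log2 fold change, and bars are quartiles for both compounds against control. The medians for both compounds descend from 0.30 to -0.34, those for dTAG-13 alone from 0.21 to -0.28, and those for doxycycline alone stay between -0.04 and 0.03.

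A list of 29 tested genes with very long transcripts (median length 14888 bases) showed the same thing at its extreme. Of these, 27 were called lower with both compounds and none higher, with a median log2 fold change of -0.69 against 0.01 over all tested genes. The median was 0.05 with doxycycline alone and -0.83 with dTAG-13 alone. Dync1h1, the heavy chain of the cytoplasmic dynein motor (chromosome 12, 110601395 to 110666944, GRCm38), fell most of the genes averaging 1 CPM or more. Its levels were 499, 511 and 498 CPM in the controls and 199, 211 and 189 CPM with both compounds, a log2 change of -1.33 ± 0.03 (SE, adjusted p = 6.64e-33). Fat1, an atypical cadherin, fell by 1.08, and Flnc, an actin-crosslinking filamin, fell by 0.98 on the log2 scale. Length correction moved Dync1h1 to -0.84 and the median of the list to -0.19, with 19 members lower and 5 higher. The exons of Dync1h1 overlap non-coding genes in the annotation, as do those of Fat1.

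The transgene was the check of the labels. Adpgk, the ADP-dependent glucokinase (Entrez 72141, chromosome 9, 59291572 to 59316200, GRCm38), was at 162, 158 and 162 CPM in the controls and at 1378, 1351 and 1379 CPM with both compounds. All 3 libraries with both compounds were far above all controls, 8.53-fold higher, with a log2 change of 3.09 ± 0.02 (SE, adjusted p = 1.36e-50). The level was 1343, 1316 and 1355 CPM with doxycycline alone and 177, 182 and 185 CPM with dTAG-13 alone, so the 3 libraries of both doxycycline groups lay far above the rest. The table does not separate transgene reads from reads of the cells' own Adpgk, and it holds no protein values. Fkbp1a, which encodes FKBP12, the natural counterpart of the tag, went from 575 ± 11.5 to 520.2 ± 17.3 CPM (SD, n = 3) and fell by 0.14 on the log2 scale (edgeR, adjusted p = 3.71e-07).

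The ligase that dTAG-13 recruits changed little. Crbn, the substrate receptor cereblon, was at 22.1, 21.8 and 21.3 CPM in the controls and 28.9, 28.3 and 25.8 CPM with both compounds, and rose by 0.34 ± 0.06 on the log2 scale (SE, adjusted p = 1.66e-06); its exons overlap those of Trnt1. Over the 15 genes of the transgene, tag and ligase list, 7 were called higher and 6 lower, with a median log2 fold change of 0.02 (from 0.004 without control replicate 1 to 0.046 without replicate 2 with both compounds). Uba3, a subunit of the enzyme that activates NEDD8, rose by 0.38, and Cand1, a factor that exchanges cullin substrate receptors, fell by 0.35. None of the 14 genes other than Adpgk reached 2-fold. The length-corrected median of the list was -0.13, with 5 higher and 8 lower.

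Antigen presentation on MHC class I was the study's subject, and its genes are given here by role, from the presenting chains to the proteasome subunits that cut the peptides. The heavy chain H2-K1 was at 1504, 1484 and 1352 CPM in the controls and 1428, 1362 and 1440 CPM with both compounds, groups that overlap, with a log2 change of -0.04 ± 0.04 (SE, adjusted p = 0.411). H2-D1, the other classical heavy chain of this haplotype, had a log2 change of -0.01 ± 0.03 (SE, adjusted p = 0.744). Without control replicate 3, in which both were lowest of the controls, they were called lower, H2-K1 at -0.09 (adjusted p = 0.00028) and H2-D1 at -0.06 (adjusted p = 0.00815). Length correction also called H2-K1 lower, at -0.13 (adjusted p = 0.0109). B2m, the light chain, was at 2366, 2402 and 2615 CPM in the controls and 2720, 2836 and 2651 CPM with both compounds and was called higher by 0.15 ± 0.04 (SE, adjusted p = 0.00606). That call turned direction with length correction (-0.48, adjusted p = 3.46e-05), so no direction is given for B2m.

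All 5 immunoproteasome genes, which encode the inducible catalytic subunits and the PA28 activator that shape peptides for MHC class I, rose with both compounds. Psmb9 was at 107, 107 and 102 CPM in the controls and 164, 166 and 166 CPM with both compounds, a log2 change of 0.65 ± 0.03 (SE, adjusted p = 2.32e-21). The activator subunits Psme2 and Psme1 rose by 0.51 and 0.40, and the catalytic subunits Psmb8 and Psmb10 by 0.36 and 0.26. For Psmb9 the change was 0.24 with doxycycline alone and 0.42 with dTAG-13 alone, both called. The exons of Psmb9 overlap those of Tap1, and the exons of Psme1 those of Emc9. The median transcript length of the 5 genes was 1907 bases, against 3400 over all tested genes. No length-corrected value is given for them apart from the whole list, so their rise is not separated from the trend with length. Peptide transport and loading went both ways, with 2 of 8 genes called higher and 2 lower. Tap1, which carries peptides into the endoplasmic reticulum, was not called (-0.04 ± 0.02, SE, adjusted p = 0.141), and neither was Nlrc5, the transactivator of MHC class I genes (-0.03 ± 0.04, SE, adjusted p = 0.466). Both were called higher after length correction, Tap1 by 0.14 and Nlrc5 by 0.36, and Tap1 was called lower without control replicate 3 (-0.05, adjusted p = 0.0417). Over the whole list of 17 genes, 8 were called higher (32.5% of all tested genes were) and 2 lower, with a median log2 fold change of 0.00. Length correction gave 10 higher and 5 lower, with a median of 0.09.

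The interferon-gamma response went up further in cells that all had the cytokine. Of 24 tested genes, 17 were called higher and 4 lower, against 32.5% and 33.8% of all tested genes. The median log2 fold change was 0.28, and the length-corrected median was 0.21 with 17 higher and 2 lower of 23. The median was 0.30 with doxycycline alone and 0.02 with dTAG-13 alone. The rise was not uniform along the pathway. Jak2, a receptor kinase, fell from 70.6 ± 2.3 to 58.1 ± 2.3 CPM (SD, n = 3) by 0.28 on the log2 scale. Irf1, a transcription factor induced early by the cytokine, rose from 445 ± 0.875 to 539 ± 2.9 CPM (SD, n = 3), and Socs1, the feedback inhibitor of Jak kinases, rose by 0.39.

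The guanylate-binding proteins, interferon-induced GTPases that act against intracellular microbes, held some of the largest of these values. Gbp5 was at 16.3, 16.2 and 16.4 CPM in the controls and 26.4, 31.4 and 27.7 CPM with both compounds, a log2 change of 0.81 ± 0.06 (SE, adjusted p = 1.4e-14). With doxycycline alone it was at 41.7, 38.5 and 38.5 CPM, above all libraries of both other groups. Gbp6 rose by 0.72, while the immunity-related GTPase Irgm1 fell by 0.25. Cxcl10, the chemokine that draws T cells through Cxcr3, was at 67.5, 67.2 and 70.1 CPM in the controls and 116, 119 and 114 CPM with both compounds, 1.70-fold higher (log2 fold change 0.77 ± 0.03, SE, adjusted p = 7.33e-23). Cxcl11, a ligand of the same receptor that the reference lists as a transcribed pseudogene, was low, at 0.22 to 0.39 CPM in the controls and 0.535 to 0.864 CPM with both compounds (0.96 ± 0.39, SE, adjusted p = 0.0276), and it was not called without control replicate 1 (0.72, adjusted p = 0.139) or replicate 2 with both compounds (0.70, adjusted p = 0.173). Cd274, the checkpoint ligand PD-L1, rose from 84.9 ± 1.55 to 109 ± 2.48 CPM (SD, n = 3) by 0.36. Ido1, the tryptophan-degrading enzyme, passed 2-fold (1.49 ± 0.43, SE, adjusted p = 0.00217) at levels under 1 CPM.

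Antiviral genes of the type I interferon set rose together. Of 22 genes tested, 20 were called higher and none lower, against 32.5% and 33.8% of all tested genes. At least 2-fold higher were 8 of them (2.29% of all tested genes were). The median log2 fold change was 0.64 against 0.01 over all tested genes. Length correction left the median at 0.57, with 18 of 21 higher and 1 lower. The median was 0.53 with doxycycline alone, where 18 of 22 were called higher (14.8% of all tested genes were). It was 0.01 with dTAG-13 alone, where 6 were called higher and 4 lower (30.0% and 32.1% of all tested genes). The starts of several of these genes carry ISRE letters, and 5 are shown as the reason for the name of the set, from RefSeq on GRCm38.p6, 60 bases each in the direction of the gene. Capitals mark every GAAANNGAAA on either strand, overlapping matches included. Eif2ak2 is shown as the member that holds the letters and was not called.
Ifit1, chr19:34640760-34640819, plus strand: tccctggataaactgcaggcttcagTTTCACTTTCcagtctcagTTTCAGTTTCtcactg
Isg15, chr4:156200862-156200921, minus strand: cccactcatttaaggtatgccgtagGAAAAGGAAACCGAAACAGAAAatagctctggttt
Oas1a, chr5:120907511-120907570, minus strand: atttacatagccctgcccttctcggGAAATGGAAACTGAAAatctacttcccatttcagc
Rsad2, chr12:26456538-26456597, minus strand: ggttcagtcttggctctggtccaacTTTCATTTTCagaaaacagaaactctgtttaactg
Eif2ak2, chr17:78882523-78882582, minus strand: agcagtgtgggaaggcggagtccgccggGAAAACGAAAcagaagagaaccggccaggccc

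Windows of 300 bases around the gene start (250 before and 50 after) were searched, with chromosome 18 left out. There, GAAANNGAAA on either strand was present in 3.7% of the 9754 tested genes with a window and in 3.4% of the 32851 windows. It was present in 10 of the 16 type I genes with a window (62.5%) and in 9 of 18 interferon-gamma genes (50%). The GAS letters TTCNNNGAA were present in 8.2% of tested genes, in 7 of 18 interferon-gamma genes (38.9%) and in 4 of 16 type I genes (25.0%). A match is a run of letters, and it shows neither a bound site nor the cause of a change. Of the 5 genes printed above, Ifit1, Isg15, Oas1a and Rsad2 rose and Eif2ak2, the double-stranded RNA-activated kinase PKR, had a log2 change of -0.01 ± 0.04 (SE, adjusted p = 0.848).

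The largest changes of the set were in low-level genes. Oas2, an oligoadenylate synthetase that activates RNase L (chromosome 5, 120730333 to 120749886, GRCm38), was at 0.847, 0.902 and 0.852 CPM in the controls and 3.66, 3.65 and 3.58 CPM with both compounds, a log2 change of 2.06 ± 0.19 (SE, adjusted p = 1.22e-12). It was 1.71 with doxycycline alone and 0.61 with dTAG-13 alone. Mx1 and Mx2, dynamin-like antiviral GTPases, rose by 1.90 and 1.71; the reference lists both as transcribed pseudogenes. Ifit3, which with Ifit1 recognises foreign RNA, was at 5.84, 5.80 and 4.72 CPM in the controls and 15.8, 15.6 and 15.6 CPM with both compounds, 2.86-fold higher. Ifit1 itself was at 9.44, 7.86 and 8.41 CPM in the controls and 21.2, 20.1 and 20.4 CPM with both compounds (1.26 ± 0.08, SE, adjusted p = 1.12e-17). In these genes every library with both compounds was above every control.

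The interaction was called for 5 of the 22 type I genes, near the 22.9% of all tested genes, so it is not a trait of the set. In single members the combined endpoint was not always the doxycycline level. Isg15, the ubiquitin-like modifier, was at 34.3, 33.1 and 32.4 CPM in the controls, 42.9, 42.6 and 43.2 CPM with doxycycline alone and 67.3, 61.5 and 65.3 CPM with both compounds. Its log2 fold change was 0.96 ± 0.04 (SE, adjusted p = 5.04e-22), and the interaction was 0.41 (adjusted p = 3.58e-06). Ifit1 had an interaction of 0.43 (adjusted p = 0.00479), and Cxcl10, described above with the interferon-gamma genes, one of 0.22 (adjusted p = 0.000519). Stat2, a subunit of the type I transcription complex, showed the other order, at 61.2 ± 0.817 CPM in the controls, 76.1 ± 1.4 CPM with both compounds (SD, n = 3) and 87.8, 89.0 and 91.3 CPM with doxycycline alone. Irf9, another part of that complex, rose by 0.31, and Irf7, which amplifies type I interferon production, by 1.15. Ifi44 rose by 1.26, Rsad2 by 1.04 and Oas1a by 0.68. Ifit2 was at 44.1, 42.4 and 45.7 CPM in the controls and 40.6, 41.4 and 46.3 CPM with both compounds, groups that overlap, with a log2 change of -0.04 ± 0.05 (SE, adjusted p = 0.513), and length correction called it lower at -0.18.

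**Figure D2:**
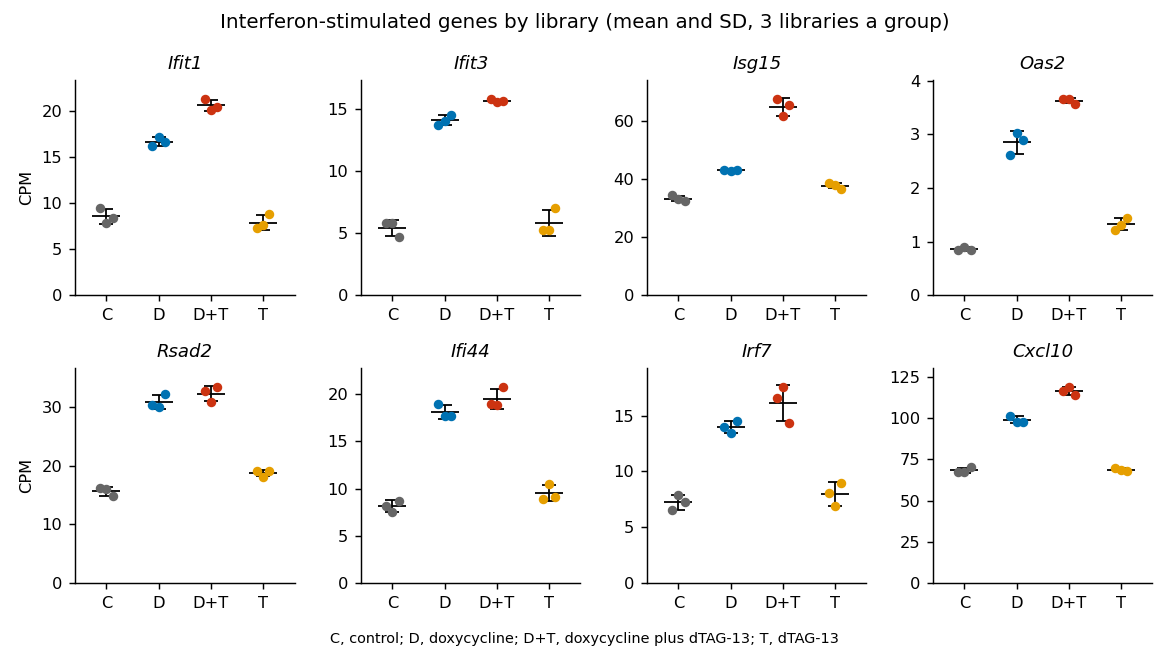
Each panel shows 1 gene, the y axis its level in CPM from 0 and the x axis the 4 groups; points are libraries and bars the mean and SD of 3 libraries. In the 7 type I genes and Cxcl10 the libraries with both compounds (D+T) lie above the controls (C), and in Isg15 they lie above doxycycline alone (D) as well, at 61.5 to 67.3 against 42.6 to 43.2 CPM.

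Cytokines and the NF-kappaB pathway, which drives inflammatory genes, were mixed. Csf3, granulocyte colony-stimulating factor, was at 1.51, 1.84 and 1.53 CPM in the controls and 6.06, 5.93 and 5.91 CPM with both compounds, 3.66-fold higher (log2 fold change 1.87 ± 0.15, SE, adjusted p = 2.32e-14). Cxcl1, a neutrophil chemokine, rose by 1.52 ± 0.11, and Ccl2, a monocyte chemokine, by 0.89 ± 0.05 (SE). For Cxcl1 the change was 0.95 with doxycycline alone and 0.66 with dTAG-13 alone. The DNA-binding subunits went the other way. Nfkb2, the precursor of p52, was at 352, 346 and 337 CPM in the controls and 235, 234 and 229.8 CPM with both compounds, a log2 change of -0.57 ± 0.02 (SE, adjusted p = 3.91e-23). Nfkb1 fell by 0.47 and Rela by 0.46, and these 3 of 5 subunits were called lower and none higher. Over the 17 tested genes of the whole list, 7 were called higher and 5 lower, and with length correction 6 higher and 7 lower.

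The Apolipoprotein L family, lipid-binding proteins of which several are induced by interferon, had 5 of 6 tested members higher and 1 lower, with a median log2 fold change of 0.61 and a length-corrected one of 0.58. Apol7a rose from 2.81 ± 0.544 to 6.03 ± 0.686 CPM (SD, n = 3) by 1.09, and Apol6 rose by 0.73. Apol8 was the exception. It was at 64.9, 67.1 and 64.7 CPM in the controls, 38.4, 39.5 and 44.2 CPM with both compounds, and 28.3, 25.1 and 24.3 CPM with dTAG-13 alone. Its log2 fold change was -0.68 ± 0.05 (SE, adjusted p = 8.31e-15) against -1.34 with dTAG-13 alone, and the interaction was 1.16 (adjusted p = 6.95e-15). Members of this family are close copies of each other, so the split of reads between them is uncertain.

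A pair of genes that were near 0 in the controls were the largest changes of all genes averaging 1 CPM or more. Samd5, a small protein with a sterile alpha motif (chromosome 10, 9262461 to 9675926, GRCm38), had 2 reads over the 3 control libraries and 426 over the 3 with both compounds. The ratio per library size was 255, with a 95% exact interval of 70.1 to 2110 that covers counting error only. Adgrg1, the adhesion G protein-coupled receptor GPR56 (chromosome 8, 94974756 to 95014208), was at 0.91, 0.419 and 1.1 CPM in the controls and 48.2, 50.9 and 48.5 CPM with both compounds, a log2 change of 5.93 ± 0.11 (SE, adjusted p = 4.4e-31). With doxycycline alone it was at 69.2, 72.7 and 66.2 CPM, above the level with both compounds in every library, and with dTAG-13 alone at 0.344 to 0.611 CPM. Samd5 with doxycycline alone was at 5.80, 6.17 and 7.28 CPM, against 5.35, 5.93 and 4.95 CPM with both compounds.

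Itgb7, the integrin beta 7 chain of lymphocyte homing receptors, and Map4k3, a kinase that feeds JNK signalling, also rose in both doxycycline groups. Unlike Samd5 and Adgrg1, they were not near 0 in the controls, and Itgb7 was called higher with dTAG-13 alone too. Itgb7 was at 21.1, 20.7 and 18.0 CPM in the controls and 64.9, 66.5 and 66.0 CPM with both compounds (log2 fold change 1.72 ± 0.05, SE, adjusted p = 1.88e-28), with 1.76 for doxycycline alone and 0.34 for dTAG-13 alone. Map4k3 was at 30.8, 33.4 and 33.1 CPM in the controls and 79.0, 81.0 and 77.9 CPM with both compounds (1.29 ± 0.05, SE, adjusted p = 4.5e-24). Its change was 1.44 with doxycycline alone, and with dTAG-13 alone it was at 26.9, 30.2 and 31.7 CPM. Length correction left these at 1.80 for Itgb7 and 1.28 for Map4k3.

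A further group was, like Itgb7, also called higher with dTAG-13 alone. Dnm3os, a non-coding RNA that hosts the miR-199a and miR-214 hairpins, was at 2.92, 3.41 and 2.73 CPM in the controls and 14.2, 12.4 and 16.3 CPM with both compounds (2.24 ± 0.11, SE, adjusted p = 4.75e-21), with 0.50 for doxycycline alone and 2.01 for dTAG-13 alone. Malat1, an abundant nuclear non-coding RNA, was at 61.1, 57.7 and 54.3 CPM in the controls and 157, 154 and 173 CPM with both compounds (1.49 ± 0.06, SE, adjusted p = 2.78e-10). Its single changes were 0.53 with doxycycline and 0.95 with dTAG-13. Its transcript is long (6983 bases), and the fit with offsets for length and GC content gave 1.61. Avpi1, a gene first found as vasopressin-induced, rose from 106 ± 0.607 to 230.3 ± 4.53 CPM (SD, n = 3) by 1.12. Igfbp6, a binding protein of insulin-like growth factor, rose by 1.02, and AA467197, whose exons overlap Mir147, by 1.09; length correction took the last to 0.45. At levels under 3 CPM the metalloprotease Adamts6 rose by 2.03 ± 0.24 (SE) and the serpin Serpinb9b by 1.90 ± 0.29 (SE).

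The genes that fell most included several with long transcripts. Fasn, fatty acid synthase (chromosome 11, 120805958 to 120825166, GRCm38), was at 693, 702 and 717 CPM in the controls and 302, 322 and 305 CPM with both compounds, 0.44 times the control level (log2 fold change -1.19 ± 0.02, SE, adjusted p = 1.29e-32). Its change was -0.30 with doxycycline alone and -1.31 with dTAG-13 alone. Myo10, the myosin of filopodia, was at 665, 658 and 663 CPM in the controls and 300.4, 316 and 292 CPM with both compounds, a log2 fold change of -1.13. Polr2a, the largest subunit of RNA polymerase II, fell by 1.1, and Snrnp200, the helicase of the spliceosomal U5 particle, by 1.11. Lrp2, the endocytic receptor megalin, fell by 1.12, Tacc2, a centrosomal protein, by 1.1, and Zc3h13, a part of the RNA m6A methylation complex, by 1.14. Adam19, a membrane metalloprotease, fell by 1.22, and Gm4972, listed as a pseudogene, by 1.12. Flt1, a receptor of VEGF, and Ddah1, which clears methylarginines, fell by 1.24 and 1.16 at levels near 1 to 2 CPM. All libraries with both compounds were below all controls for these 11 genes and Dync1h1, as the rule that named them required. After length correction Fasn was at -0.65, Myo10 at -0.71, Polr2a at -0.76, Snrnp200 at -0.78, Lrp2 at -0.69, Tacc2 at -0.64, Zc3h13 at -0.86, Adam19 at -0.88, Flt1 at -0.92 and Ddah1 at -1.1, all still called lower.

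Immediate early genes, which growth factor and stress signals switch on within minutes, often stood elsewhere with both compounds than with either alone. Of 23 tested, 8 were called higher with both compounds and 4 lower, with a median log2 fold change of 0.04. That median was 0.09 with length correction (9 higher, 4 lower), 0.07 without control replicate 2 or control replicate 3, and 0.10 without replicate 3 with both compounds. With doxycycline alone 3 were called higher and 13 lower (18.7% of all tested genes were called lower there), with a median of -0.27. The interaction was called for 17 of the 23, against 22.9% of all tested genes. Ccn1, a matricellular protein and YAP target (chromosome 3, 145646971 to 145649985, GRCm38), was at 289, 283 and 292 CPM in the controls, 109, 104 and 106 CPM with doxycycline alone, 221, 235 and 235 CPM with dTAG-13 alone and 328, 342 and 319 CPM with both compounds. It was thus lower than control in each single treatment and higher with both, by 0.19 ± 0.03 (SE, adjusted p = 3.24e-08), with an interaction of 1.96 (adjusted p = 4.1e-33), the largest positive one among the named genes.

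In several transcription factors the level was also lower with doxycycline alone than with both compounds. Egr1, a zinc finger factor, was at 277, 270.2 and 291 CPM in the controls, 107, 111 and 109 CPM with doxycycline alone and 238, 245 and 230.1 CPM with both compounds. Its change with both compounds was -0.23 ± 0.03 (SE, adjusted p = 6.52e-10), which length correction moved to 0.03 (not called), while the interaction was 1.69 (adjusted p = 6.51e-31). Fos, a subunit of AP-1, was at 2.76, 2.22 and 2.88 CPM in the controls, 0.842, 1.03 and 0.967 CPM with doxycycline alone and 2.72, 2.48 and 2.68 CPM with both compounds, not called against control (0.01 ± 0.17, SE, adjusted p = 0.98). Klf6 fell to 196, 188 and 188 CPM with doxycycline alone from 347, 347 and 348 CPM, and was at 408, 405 and 403 CPM with both compounds. The interactions were 1.95 for Fos, 1.19 for Klf6, 1.21 for Dusp1, a MAP kinase phosphatase, and 0.88 for Ier2. Dusp1 rose by 0.63 with both compounds, Btg2, an antiproliferative factor, by 0.57, and Ier2 by 0.25. Myc, the growth regulator, did not follow: it fell in every comparison, by 0.44 with both compounds, 0.36 with doxycycline and 0.42 with dTAG-13. Fosl1, another AP-1 subunit, fell by 0.48; its exons overlap Ccdc85b.

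**Figure D3:**
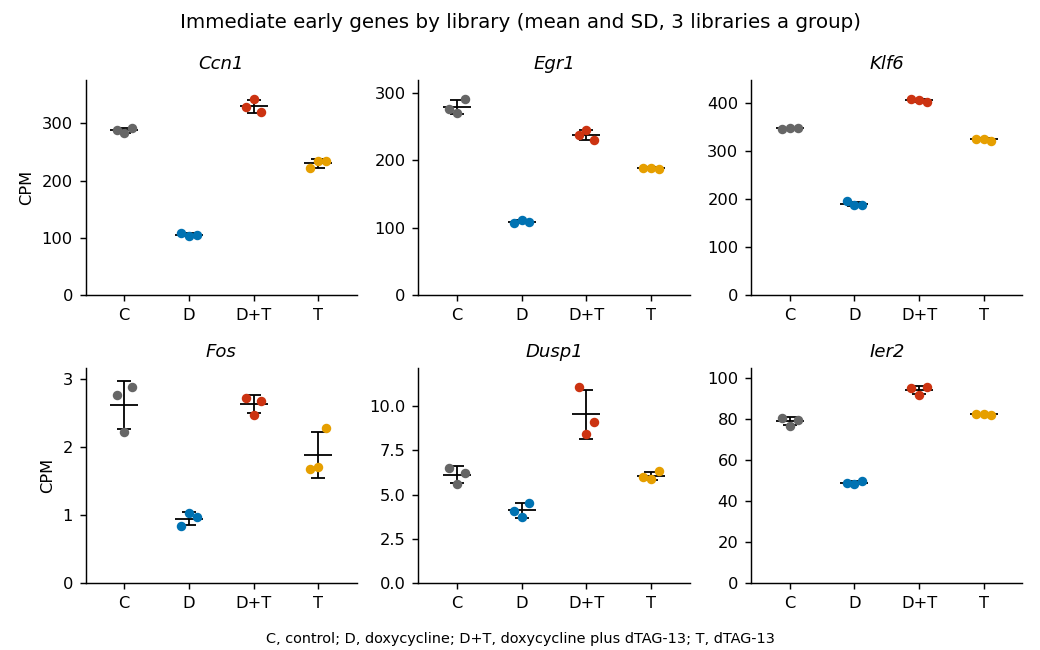
Each panel shows 1 gene, the y axis its level in CPM from 0 and the x axis the 4 groups; points are libraries and bars the mean and SD of 3 libraries. In all 6 genes doxycycline alone (D) is below control (C), and with both compounds (D+T) the libraries are back at or above it, except Egr1, at 230.1 to 245 against 270.2 to 291 CPM.

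Beyond that list, interactions went in both directions. The rule for named genes took the largest only among genes averaging 1 CPM or more whose control libraries do not overlap those with both compounds, which leaves out larger negative values given below (Adm, Car9 and Nos2). Rnf225, a membrane RING finger protein, was at 1.85, 1.42 and 1.42 CPM in the controls, 1.07, 0.433 and 0.898 CPM with doxycycline alone and 3.34, 3.58 and 3.58 CPM with both compounds, an interaction of 1.67 (adjusted p = 7.13e-05). Prdm1, the repressor Blimp-1, was at 3.08, 4.35 and 4.12 CPM in the controls and at 1.83, 2.12 and 1.82 CPM with both compounds, while neither single treatment was called. Its interaction was -1.15 (adjusted p = 9.09e-05). Trp53inp1, a stress protein induced by p53, was higher with dTAG-13 alone (0.95) than with both compounds (0.36, not called), an interaction of -1.13. Zfp607b, a zinc finger gene, had -1.07 (adjusted p = 0.0224), which was no longer called without control replicate 1 (-0.98, adjusted p = 0.0615).

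Feedback genes of the ERK pathway, which growth factor signalling induces and which restrain it, were mostly lower. Of 14 genes tested, 11 were called lower with both compounds and 1 higher, against 33.8% and 32.5% of all tested genes. The median log2 fold change was -0.39, and length correction gave -0.41 with the same counts. Spry4, a Sprouty inhibitor of receptor signalling, was at 85.8, 85.0 and 84.3 CPM in the controls and 49.3, 50.1 and 47.1 CPM with both compounds, a log2 change of -0.80 ± 0.04 (SE, adjusted p = 8.47e-22). It fell by 0.40 with doxycycline alone and 0.55 with dTAG-13 alone. Epha2, a receptor kinase induced by ERK, fell by 0.68, Etv5, an ETS factor, by 0.67, and Spred2, another inhibitor of the pathway, by 0.63. All 4 Dusp phosphatases of the list were called lower.

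Targets of YAP and TEAD, which answer cell shape and contact, were also lower. Of 20 tested, 13 were called lower and 3 higher, against 33.8% and 32.5% of all tested genes. The median log2 fold change was -0.48, which length correction took to -0.28 with 10 lower and 1 higher. Dock5, an activator of Rac, was at 88.2, 86.9 and 91.0 CPM in the controls and 46.4, 50.8 and 47.7 CPM with both compounds (-0.88 ± 0.04, SE, adjusted p = 2.88e-22). The phosphatase Ptpn14, itself an inhibitor of YAP, fell by 0.82, the membrane repair protein Myof by 0.81 and Amotl2, an angiomotin, by 0.68. For Dock5 the change was -0.80 with dTAG-13 alone, and with doxycycline alone it was at 84.6, 80.2 and 79.7 CPM. Ccn1, described above, was among the 3 that rose.

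Extracellular matrix and adhesion genes had 13 of 17 tested members lower and 3 higher, against 33.8% and 32.5% of all tested genes. Their median was -0.33, and the length-corrected median was -0.11 with 10 lower and 5 higher. Fn1, fibronectin, was at 759, 767 and 797 CPM in the controls and 394, 400.2 and 389.8 CPM with both compounds, a log2 change of -0.97 ± 0.02 (SE, adjusted p = 4.79e-32); it is also one of the mesenchymal markers. Lamb1, a laminin chain, fell by 0.86 and Col4a2, a collagen of basement membranes, by 0.72. Itgb7 was the exception, as given above. Actin partners that SRF and MRTF control went both ways, with 5 of 14 higher and 7 lower, and with 3 higher and 7 lower after length correction. The long Myh9, non-muscle myosin heavy chain, fell by 0.91, Vcl, vinculin, by 0.75 and Flna, filamin A, by 0.47, while the short LIM proteins Fhl2 and Csrp1 rose by 0.40 and 0.35. Length correction took Flna to -0.04 and out of the calls.

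Genes for the proteins of the cytosolic ribosome were mostly higher. Of 78 such genes, 65 were called higher and none lower, against 32.5% and 33.8% of all tested genes. The median log2 fold change was 0.44, at a median transcript length of 1077 bases against 3400 over all tested genes. With length correction 28 were higher and 7 lower, with a median of 0.13. Rpl12, of the large subunit, was at 42.3, 41.7 and 38.5 CPM in the controls and 81.3, 76.5 and 72.3 CPM with both compounds (0.90 ± 0.04, SE, adjusted p = 2.63e-21), and kept 0.89 after correction. The length used for Rpl12 was 2863 bases, that of its longest annotated transcript, so it was not corrected as a short one. Rpl17 and Rpl9 rose by 0.93 and 0.88, from mean control levels of only 12.9 and 5.67 CPM. Ribosomal protein genes have many processed pseudogenes, so the assignment of their reads is uncertain. The median was -0.06 with doxycycline alone and 0.21 with dTAG-13 alone.

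Factors that build ribosomes in the nucleolus went the other way and did so in every comparison. Of 24, 17 were called lower (33.8% of all tested genes were) and 3 higher with both compounds, with a median log2 fold change of -0.22. With doxycycline alone 23 were called lower (median -0.21), and 19 with dTAG-13 alone (median -0.22). The shares of all tested genes called lower there were 18.7% and 32.1%. The length-corrected median was -0.25, with 19 lower and 4 higher. Utp20, of the complex that processes the small subunit RNA, was at 199, 198 and 198 CPM in the controls and 97.0, 92.1 and 93.8 CPM with both compounds, a log2 fold change of -1.07. Polr1a, the largest subunit of RNA polymerase I, fell by 1.06, and Ddx21, a nucleolar helicase, by 0.71. Nop56, a core protein of box C/D small nucleolar ribonucleoproteins, rose by 0.35.

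The direction of the mitochondrially encoded genes and of the nuclear respiratory chain genes turned with the correction for length and GC content. The median of the mitochondrial ribosome genes fell with it from 0.29 to 0.08 and kept its sign. All 13 genes encoded in mitochondrial DNA were called higher with both compounds, with a median log2 fold change of 0.55, but with length correction 9 were lower and none higher, with a median of -0.24. Their median was 0.10 with doxycycline alone and -0.22 with dTAG-13 alone, where the shortest eighth of all genes had 0.21. The interaction was called for 11 of the 13, and for 10 after correction. mt-Nd2, a complex I subunit, was at 1333, 1377 and 1541 CPM in the controls, 1203, 1254 and 1201 CPM with dTAG-13 alone and 2339, 2441 and 2284 CPM with both compounds, a log2 fold change of 0.73 and an interaction of 0.69 (adjusted p = 0.0003). mt-Nd3 and mt-Atp8, which are shorter, had 0.83 and 0.74, and mt-Cytb, cytochrome b, 0.24. With length correction mt-Nd2 was at 0.04 and mt-Nd3 at -0.24, neither called, and mt-Cytb at -0.36, called lower. Of 53 nuclear genes for subunits of the respiratory chain and ATP synthase, 41 were called higher (32.5% of all tested genes were) and 3 lower. Their median was 0.34, which was -0.05 with length correction (14 higher, 16 lower). Cox7c rose by 0.77, which the correction took to 0.01 (not called), Atp5e by 0.73 and Ndufa6 by 0.65. Of 42 mitochondrial ribosome genes, 34 were called higher and 1 lower, and the length-corrected median was 0.08 with 19 higher and 7 lower. Mrpl33, Mrps16 and Mrpl24 rose by 0.69, 0.54 and 0.48. The lengths used for them were 2741, 2572 and 1339 bases, those of the longest annotated transcripts. Members with shorter transcripts in use would not have been corrected as short ones.

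The constitutive proteasome, which degrades ubiquitinated proteins, had 23 of 32 genes higher (32.5% of all tested genes were) and 4 lower. Its median log2 fold change was 0.18. All 14 genes of the 20S core were called higher, while the 19S regulator had 9 of 18 higher and 4 lower. Psma3, a core subunit, was at 45.6, 45.8 and 40.0 CPM in the controls and 66.7, 62.2 and 62.6 CPM with both compounds (0.54 ± 0.05, SE, adjusted p = 4.04e-09), and Psma5 rose by 0.44. Psmd3, of the regulator, fell by 0.45. With doxycycline alone 23 of 32 were called lower (18.7% of all tested genes were). The length-corrected median of the list was -0.04, with 8 higher and 14 lower, so the direction of the list as a whole turned with that choice.

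**Figure D4:**
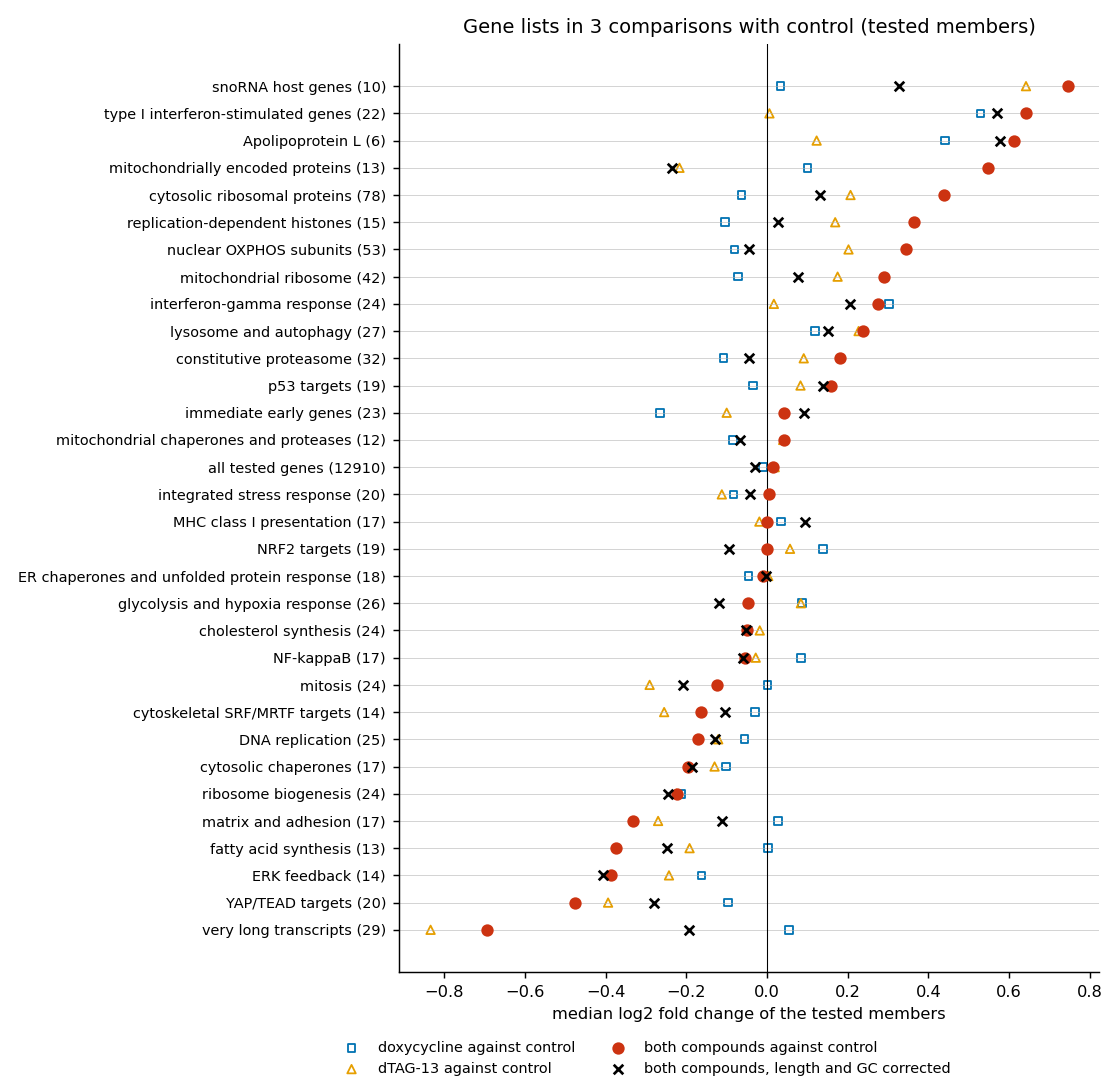
Each row is a gene list with its number of tested members in brackets; the x axis is the median log2 fold change of those members against control for both compounds, for both compounds with length and GC correction, for doxycycline and for dTAG-13. Type I interferon-stimulated genes (0.64, corrected 0.57) and ERK feedback genes (-0.39, corrected -0.41) keep their place, while mitochondrially encoded genes (0.55, corrected -0.24) do not.

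Fatty acid synthesis genes had 11 of 13 members lower and 1 higher, with a median log2 fold change of -0.37 and a length-corrected median of -0.25 with 12 lower. Besides Fasn, Acaca, acetyl-CoA carboxylase, fell by 0.75 and the desaturase Scd1 by 0.50. Scd1 was at 418, 414 and 433 CPM in the controls and 287, 310.0 and 295 CPM with both compounds. Cholesterol synthesis had no common direction, with 7 of 24 higher and 9 lower, and with 3 higher and 7 lower after length correction. Lss, lanosterol synthase, fell by 0.37. Idi1, an isomerase of the mevalonate steps, was called higher by 0.23, and length correction brought it to -0.0031 and Lss to -0.07, neither called.

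Glycolytic enzymes were mostly lower and hypoxia-responsive genes mostly not. Of 14 glycolytic genes, 9 were called lower and 2 higher, with a median log2 fold change of -0.24. Over all 26 genes of both kinds, 8 were called higher and 11 lower, and 7 and 12 with length correction. Hk2, the inducible hexokinase, was at 170.3, 173 and 166 CPM in the controls and 84.7, 87.1 and 84.2 CPM with both compounds, a log2 change of -0.99 ± 0.03 (SE, adjusted p = 2.05e-28), and Hk1 fell by 0.58. The 12 hypoxia-responsive genes had a median of 0.11 with both compounds, 0.23 with doxycycline alone and 0.35 with dTAG-13 alone, and the interaction was called for 11 of them. Adm, adrenomedullin, was at 3.70, 3.80 and 3.90 CPM in the controls, 7.20, 7.08 and 9.40 CPM with dTAG-13 alone and 4.15, 3.3 and 3.61 CPM with both compounds, back among the controls, with an interaction of -1.51 (adjusted p = 2.31e-08). Car9, carbonic anhydrase IX, rose in each single treatment, by 0.79 and 0.91, and was not called with both (0.27 ± 0.15, SE, adjusted p = 0.117), an interaction of -1.44. Without replicate 3 with both compounds that change was 0.39 and was called (adjusted p = 0.0407). Bnip3, a mitophagy receptor, rose by 0.51 with both compounds against 0.77 with dTAG-13 alone, and Egln1, a prolyl hydroxylase that marks HIF for degradation, fell by 0.59.

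Stress pathways gave single genes rather than common directions. In the integrated stress response, 9 of 20 genes were called higher and 9 lower, and 7 and 9 with length correction. Slc7a5, an amino acid transporter, was at 846, 841 and 838 CPM in the controls and 478, 499.9 and 479.8 CPM with both compounds (-0.79 ± 0.02, SE, adjusted p = 5.74e-30), Sesn2, sestrin 2, fell by 0.72 and Shmt2, of mitochondrial one-carbon metabolism, by 0.36. The factor Atf4 rose by 0.10. Its target Ddit3 (CHOP) was called higher by 0.30, but was lower by 0.17 with length correction, so no direction is given for it. Of 18 genes of endoplasmic reticulum folding and the unfolded protein response, 7 were called higher and 7 lower (6 and 6 with length correction), with Sdf2l1, a chaperone partner, higher by 0.58 and the sensors Ern1 (IRE1) and Atf6 lower by 0.54 and 0.40.

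Cytosolic chaperones had 10 of 17 members lower and 3 higher, with a median of -0.20 and a length-corrected median of -0.19 with 13 lower. Among heat shock genes Bag3, a co-chaperone of Hsp70, fell by 0.58, Hsph1, an Hsp110, by 0.52, and the inducible Hspa1b by 0.42. In mitochondria the 2 partners of one folding chamber parted: Hspd1 (Hsp60) was at 989.8, 992 and 987 CPM in the controls and 731, 729 and 736 CPM with both compounds, lower by 0.43, and Hspe1 (Hsp10) was higher by 0.52, which length correction took to 0.05 (not called). Afg3l2, an inner membrane protease, fell by 0.39.

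NRF2 targets, which answer oxidants and electrophiles, had 7 of 19 higher and 9 lower, and with length correction 5 higher and 12 lower, with a median log2 fold change of -0.10. Nqo1, the quinone reductase, was at 3.86, 4.96 and 3.83 CPM in the controls and 10.3, 10.9 and 9.38 CPM with both compounds, 2.41-fold higher (1.27 ± 0.11, SE, adjusted p = 2.48e-13), with 0.94 for doxycycline alone and 0.75 for dTAG-13 alone. Prdx1, a peroxiredoxin, rose by 0.67 and Blvrb, biliverdin reductase B, by 0.59. Hmox1, haem oxygenase, was at 289, 285 and 312 CPM in the controls, 419.9, 429 and 413 CPM with doxycycline alone and 239, 249 and 235 CPM with both compounds, with an interaction of -0.79 (adjusted p = 4.95e-18). Nos2, inducible nitric oxide synthase, was also highest with doxycycline alone, at 19.3, 22.2 and 21.3 CPM against 7.58, 8.61 and 8.01 CPM with both compounds and 5.90, 6.73 and 7.84 CPM in the controls, an interaction of -1.21 (adjusted p = 1.2e-08). Its small rise with both compounds against control (0.25, adjusted p = 0.0314) was no longer called without control replicate 1 (0.15, adjusted p = 0.245), control replicate 2, or replicate 2 or 3 with both compounds.

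Genes that p53 induces had 8 of 19 tested members higher and 4 lower, against 32.5% and 33.8% of all tested genes. No common direction is read from these counts. The median log2 fold change was 0.16. The median was 0.06 without control replicate 3 and 0.07 without replicate 1 with both compounds, and length correction gave 9 higher and 7 lower. Fas, the death receptor, rose from 1.12 ± 0.265 to 2.13 ± 0.397 CPM (SD, n = 3) by 0.94, and Mdm2, the ligase of p53, by 0.31. Cdkn1a, the cell cycle inhibitor p21, was at 73.5, 74.8 and 75.4 CPM in the controls and 57.0, 56.5 and 58.0 CPM with both compounds, lower by 0.38, while it was higher by 0.21 with dTAG-13 alone. Its interaction was -0.56 (adjusted p = 3.15e-11). Zmat3, an RNA-binding target, fell by 0.64.

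Mitotic genes were more often lower than higher. Of 24 mitotic genes 14 were called lower and 6 higher with both compounds, against 33.8% and 32.5% of all tested genes. The median log2 fold change was -0.12, and the length-corrected median was -0.21 with 17 lower and 3 higher. The median was 0.00 with doxycycline alone and -0.29 with dTAG-13 alone. Mki67, the proliferation antigen Ki-67, was at 243, 244 and 264 CPM in the controls and 141, 144 and 139.7 CPM with both compounds (-0.82 ± 0.03, SE, adjusted p = 1.66e-25), with -1.1 for dTAG-13 alone and 269.5, 261 and 259.5 CPM for doxycycline alone. Cenpe, a kinetochore motor, fell by 0.80 and Plk1, the polo kinase, by 0.72. In DNA replication 14 of 25 genes were called lower and 9 higher, and with length correction 15 lower and 4 higher. Pole, a replicative polymerase, fell by 0.56 and Mcm4, of the replicative helicase, by 0.43, while Gins2 rose by 0.42. Of 15 replication-dependent histone genes tested, 6 were called higher and none lower, and with length correction 2 higher and 2 lower, with a median of 0.03. H1f5 (1.25), H4c8 (0.70) and H3c2 (0.62) had the largest values, at mean levels near or under 1 CPM. The calls of H4c8 and H3c2 were lost without single libraries, H4c8 without 4 of the 6 (0.58 to 0.66) and H3c2 without 5 of the 6 (0.43 to 0.65), and with length correction (0.25 and 0.28). These transcripts end without poly(A), which these libraries select for.

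Lysosome and autophagy genes rose, with 20 of 27 called higher (32.5% of all tested genes were) and 3 lower. The median log2 fold change was 0.24, and the length-corrected median was 0.15 with 15 higher. Gla, alpha-galactosidase A, was at 21.4, 21.9 and 22.1 CPM in the controls and 36.6, 34.6 and 37.4 CPM with both compounds (0.73 ± 0.05, SE, adjusted p = 5.98e-16), with 0.43 for doxycycline alone and 0.34 for dTAG-13 alone. Neu1, a sialidase, rose by 0.47. Ulk1, the kinase that starts autophagy, fell by 0.50.

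Host genes of small nucleolar RNAs, whose spliced RNA is a by-product that translation-linked decay usually removes, were the list with the highest median, 0.75, and 9 of 10 were called higher and none lower. The median was 0.03 with doxycycline alone and 0.64 with dTAG-13 alone. Snhg1 was at 119.9, 124 and 134 CPM in the controls and 249, 235 and 239 CPM with both compounds (0.93 ± 0.03, SE, adjusted p = 1.49e-25), with 262, 254 and 259 CPM for dTAG-13 alone. Snhg5 rose by 0.84, Snhg6 by 0.79, Zfas1 by 0.74 and Gas5 by 0.56. Only 4 of the 10 could be corrected for length, with a median of 0.33. Snord22, a small nucleolar RNA within Snhg1, was at 1.26, 1.77 and 1.17 CPM in the controls and 6.15, 5.07 and 4.4 CPM with both compounds, a log2 fold change of 1.87. Its annotated exon overlaps Snhg1, so its reads may be those of the host RNA. Its rise is not read as a change separate from that of Snhg1.

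Rmrp, the RNA of RNase MRP, and Rn7sk, the RNA that holds the elongation kinase P-TEFb, are short transcripts without poly(A), and their calls were lost without single libraries. Rmrp was at 0.879, 0.58 and 0.71 CPM in the controls and 1.2, 1.73 and 11.2 CPM with both compounds, the last in replicate 3. Its log2 change of 2.78 ± 1.06 (SE, adjusted p = 0.0457) became 1.02 (adjusted p = 0.356) without that library, and it was also lost without any 1 of the controls. Rn7sk was at 1.44, 1.03 and 1.63 CPM in the controls and 3.48, 3.22 and 9.06 CPM with both compounds, and its change of 1.99 became 1.29 (adjusted p = 0.0547) without replicate 3 and 1.82 (adjusted p = 0.0512) without control replicate 2. Replicate 3 was the highest of its group in the other treated groups too, at 2.42 CPM of Rmrp and 3.52 CPM of Rn7sk with doxycycline alone, and 1.96 and 3.1 CPM with dTAG-13 alone.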

How the data were processed

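Raw read counts per Entrez gene, not normalized, were deposited by the authors as 1 table, whose 12 library columns all matched a sample. Per the labels' protocols, RNA was extracted with RNeasy Plus and poly(A) libraries were made with NEBNext Ultra II. The file headers name Subread, and the submitters' processing notes name bcl2fastq 2.17, featureCounts and the build mm10; the gene annotation, strand setting and treatment of multi-mapping reads are not given in these sources, so values of overlapping genes and close copies are uncertain. Symbols came from RefSeq GRCm38.p6 (25275 identifiers) and GENCODE (18), and 1886 identifiers with 2.097% of reads had none.

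Counts were tested in edgeR 4.0.16 (R 4.3.3) with filterByExpr by group, TMM factors (0.9647 to 1.0349), 1 mean per group over all 12 libraries and the robust, two-sided quasi-likelihood test. P-values were adjusted by Benjamini-Hochberg over 12910 genes, and a gene was called under 0.05; 321 uncalled genes had an unadjusted p under 0.05. CPM are on TMM-scaled library sizes, and standard errors come from the fold change and F. Alternatives were RLE factors, library size only, DESeq2 1.42.0, other filters, only the 6 libraries, the replicate number as a block, offsets from splines (5 degrees of freedom) on transcript length and GC content, and leaving out each library. The code was tested on simulated data.

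The members and the 32 gene lists were chosen with earlier results of these data known. The text names the transgene, tag, cereblon and MHC class I genes, the 12 largest changes each way among called genes with a symbol, a mean of 1 CPM or more and groups that do not overlap, the 6 largest each way at 50 CPM or more, the 3 largest called members of each list and others where their role is described, and the 3 largest interactions each way among called genes of 1 CPM or more whose control libraries do not overlap those with both compounds. Some genes under this rule are not reported here. Promoter windows and motif letters come from RefSeq. Precision is limited by 22165538 to 32809573 reads a library and by 3 technical libraries a group.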

Additional observations from a re-analysis of the deposited data

Results flagged for a closer look

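The report gives an interaction for 20 genes, in each of which the response to dTAG-13 differed between cells with and without doxycycline in edgeR's quasi-likelihood test; other genes named there, such as Fasn (0.42) and Gbp5 (-0.49), also passed that test and are not listed. The interaction is the log2 change with dTAG-13 in the presence of doxycycline minus the change in its absence, and each value below passed an adjusted p of 0.05 over all tested genes. No explanation was tested.

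Immediate early genes had positive values. Ccn1 was 0.32 lower with dTAG-13 alone and 1.64 higher with dTAG-13 on top of doxycycline, an interaction of 1.96. For Fos the interaction was 1.95, for Egr1 1.69, for Dusp1 1.21, for Klf6 1.19 and for Ier2 0.88. Rnf225, outside that list, had 1.67, with 0.45 without doxycycline and 2.12 with it. Apol8 had 1.16, from -1.34 without doxycycline to -0.18 with it. The mitochondrial gene mt-Nd2 had 0.69. Interferon-stimulated genes had smaller positive values, 0.43 for Ifit1, 0.41 for Isg15 and 0.22 for Cxcl10.

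Negative values were found in hypoxia and stress genes. Adm was 1.05 higher with dTAG-13 alone, and its change on top of doxycycline was -0.46, an interaction of -1.51. Car9 had -1.44, Trp53inp1 had -1.13 and Cdkn1a had -0.56. Nos2 had -1.21 and Hmox1 had -0.79, and both were high with doxycycline alone. Prdm1 had -1.15, with 0.03 without doxycycline and -1.12 with it. Zfp607b had -1.07, not called without control replicate 1 (-0.98, adjusted p = 0.0615).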

How the results depend on the processing

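The number of called genes, 8557, ranged from 6977 to 8682 over the alternatives, and the number at 2-fold or more, 349, was 452 with no filter on low counts and fell to 178 with a filter of 1 CPM in 3 libraries, which tests fewer low-level genes, and to 180 with length and GC correction. The share of called genes that were higher, 49.0%, was 56.6% with library size only, where the median log2 fold change of all genes was 0.07, and 41.7% with length and GC correction. Leaving out 1 library gave 8017 to 8298 called genes, 348 to 396 at 2-fold or more and a share higher of 47.5% to 48.5%. The replicate block gave 8484 called genes and 345 at 2-fold or more; same-numbered control and combined libraries did not deviate together (correlations 0.026, -0.059 and -0.058), so the numbers were not taken to pair them. Length and GC correction turned the sign of B2m (-0.48), Tap1 (0.14), Nlrc5 (0.36), Egr1 (0.034), mt-Nd3 (-0.24), mt-Atp8 (-0.51), mt-Cytb (-0.36), Idi1 (-0.0031) and Ddit3 (-0.17), and of the medians of the lists of the transgene and degrader (-0.133), constitutive proteasome (-0.044), mitochondrially encoded proteins (-0.236), nuclear OXPHOS subunits (-0.045) and mitochondrial chaperones and proteases (-0.067). The last median ranged from -0.021 (without control replicate 3) to 0.072 (without control replicate 1). Library size only turned the medians of cholesterol synthesis (0.008), glycolysis and hypoxia (0.009) and NF-kappaB (0.002). Medians that lay within 1 SD between libraries of 0 also changed sign, with library size only that of the unfolded protein response (0.047) and NRF2 targets (0.056), and with length and GC correction that of the integrated stress response (-0.042), the last also without single libraries (-0.032 to 0.023). The causes were not tested. Over the 177 genes named for both compounds against control, 2413 values under an alternative kept their direction and side of the threshold, 36 lost the call, 6 gained it and 9 turned. With 3 technical libraries of 1 sample a group, no value shows the spread between cultures.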

Other observations

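Outside the rule for named genes, and chosen after their values were seen, the 2 largest falls of all tested genes were in genes under 1 CPM. Myh1, a myosin heavy chain of skeletal muscle, was at 0.377, 0.58 and 0.674 CPM in the controls and 0.0892, 0 and 0.0319 CPM with both compounds, a fitted log2 change of -3.69 ± 0.68 (SE, edgeR, adjusted p = 9.35e-06). It was at 0.0689 to 0.193 CPM with dTAG-13 alone and 0.242 to 0.453 CPM with doxycycline alone. Abcb11, the bile salt export pump of hepatocytes, was at 0.377, 0.29 and 0.745 CPM in the controls and 0.134, 0.0786 and 0.0958 CPM with both compounds, a log2 change of -2.15 ± 0.57 (SE, adjusted p = 0.000986). Both are known mainly from other tissues than the colon.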
